A study of Mus musculus with 3 samples.

Results

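The neural immunoglobulin adhesion molecules are cell-surface proteins built from immunoglobulin-like and, in most cases, fibronectin type III domains. The 10 genes described here were chosen by name among the 22976 genes of the deposited counts: the L1 family members L1cam, Chl1, Nrcam and Nfasc, the neural cell adhesion molecules Ncam1 and Ncam2, the contactins Cntn1 and Cntn2, and Alcam and Thy1. Messenger RNA was sequenced in 3 libraries of NSC-34, a mouse line in which neuroblastoma cells were fused with cells of the embryonic spinal cord. The control was 1 library of wild-type cells without treatment. The other 2 libraries came from clones, wild type otherwise, that had become resistant to PR20 spontaneously, and their treatment is given as 10 µM of the peptide for 3 weeks. The protocol field gives that exposure for the control too, but the treatment field of the control says none. PR20 is a proline-arginine repeat peptide, modelled on a product of the expanded C9ORF72 repeat. All 3 libraries share the cell line and the culture medium, and each resistant library is a single clone. The labels do not say whether PR20 was still present at harvest, nor whether the control cells were cloned.

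Adhesion molecules of this group hold axons together in bundles, guide growth cones and organise the axonal membrane. Members bind their own kind or each other across cells, the L1 family is anchored inside the cell through ankyrin and spectrin, and the contactins and Thy1 are attached to the membrane by a glycosylphosphatidylinositol (GPI) anchor. Neurons carrying NCAM1 can modify it with polysialic acid, which loosens adhesion. In neuroblastoma, NCAM1 and L1CAM are well-known surface antigens.

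In the control, L1cam and Ncam1 were the abundant members, and they parted in the resistant clones. L1cam fell about 14.1-fold and Ncam1 fell 1.28-fold. Cntn1, Cntn2, Nfasc and Thy1, which were present at low levels, also fell. Nrcam did not pass the test, and Chl1, Ncam2 and Alcam had too few reads to be tested. Of the 7 members that passed the low-count filter, 6 were called lower and 0 higher (0 also by DESeq2 and at an unadjusted p under 0.05) by edgeR's quasi-likelihood test at an adjusted p under 0.05, the rule for every call here. Of all 13705 genes tested, 25.8% were called lower, 24.3% higher and 50.1% in either direction. Cntn1 passed the filter only through its reads in the control, so its call follows in part from the filter. The median log2 fold change was -1.73 over the 7 tested members and 0.0021 over all tested genes.

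The libraries held between 11307034 and 11700755 gene counts. Levels are CPM, read counts scaled to the size of the library with TMM factors. With 1 control library, the spread rests on the clones, and nothing says that they came from separate cultures, so the p-values reflect how far these libraries scatter, and that scatter may be technical. Intervals are 95% and cover counting error only. In such bulk RNA, fewer cells carrying a transcript and less of it per cell cannot be told apart. Without the low-count filter, edgeR called 0 of the 6 members (adjusted p from 0.0719 to 0.278, with 5 of 6 at an unadjusted p under 0.05). DESeq2 called 5 of the 6, all but Thy1, where it called 10.6% of genes lower.

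**Figure D1:**
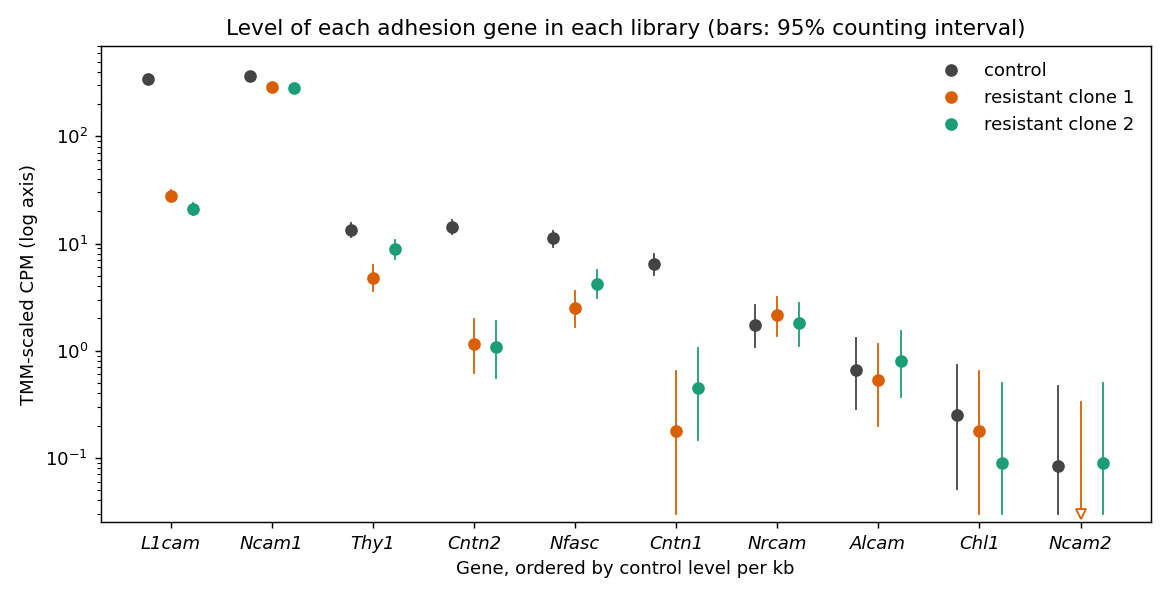
Level of each of the 10 genes in the control and the 2 resistant clones, in TMM-scaled CPM on a log axis, with 95% counting intervals as bars; genes are ordered by their control level per kb, and the open triangle marks a count of 0. L1cam falls from 346 CPM to 28.1 and 20.9 CPM, while Ncam1 stands at 366, 287 and 283 CPM.

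Stretches of genome next to the transcription starts are shown for 3 members, an abundant gene that fell (L1cam), a scarce gene that fell (Cntn1) and a member that did not pass the test (Nrcam). They are the 250 bases before the most upstream RefSeq start (build GRCm38.p6), read 5′ to 3′ on the gene's strand, with each CpG dinucleotide in capitals. None of these 3 windows overlaps an annotated exon. The Gencode interval of L1cam extends upstream of this RefSeq start, and which start the cells used was not measured.
L1cam, chrX:73880835-73881084, minus strand: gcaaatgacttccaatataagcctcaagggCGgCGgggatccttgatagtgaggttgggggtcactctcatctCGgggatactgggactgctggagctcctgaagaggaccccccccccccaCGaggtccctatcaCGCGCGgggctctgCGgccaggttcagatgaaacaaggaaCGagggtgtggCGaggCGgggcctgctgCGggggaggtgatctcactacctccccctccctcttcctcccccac
Cntn1, chr15:92050915-92051164, plus strand: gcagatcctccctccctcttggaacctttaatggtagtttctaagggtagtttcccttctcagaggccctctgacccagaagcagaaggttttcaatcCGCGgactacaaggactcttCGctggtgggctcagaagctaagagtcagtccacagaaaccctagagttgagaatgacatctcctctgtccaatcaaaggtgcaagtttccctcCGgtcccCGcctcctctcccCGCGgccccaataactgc
Nrcam, chr12:44328635-44328884, plus strand: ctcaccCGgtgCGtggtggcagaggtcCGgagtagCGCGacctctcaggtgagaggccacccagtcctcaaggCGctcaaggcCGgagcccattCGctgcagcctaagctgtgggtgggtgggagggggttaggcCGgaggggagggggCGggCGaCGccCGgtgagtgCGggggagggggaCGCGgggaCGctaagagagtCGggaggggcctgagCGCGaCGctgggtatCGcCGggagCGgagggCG

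The L1cam window holds 12 CpGs, that of Cntn1 holds 7 and that of Nrcam holds 25. Expressed as observed over expected CpG, the values were 0.481 for L1cam and 0.405 for Cntn1. Cntn2 had 0.439 and Nfasc 0.25. Among the members that were not called, Chl1 had 0.49, Alcam 0.742, Nrcam 0.847 and Ncam2 0.909. The median over 27026 mouse promoters was 0.379. The 4 called members with an entry thus lie between 0.25 and 0.481 and the others between 0.49 and 0.909. Of these others only Nrcam was tested. Chl1, Alcam and Ncam2 had too few reads, so whether they changed is not known. L1cam and Chl1 are nearly equal, the windows of Nfasc, Cntn2, Chl1 and Alcam overlap annotated exons, and no test was made on 8 windows. A TATA box (TATAAA, either strand) occurred in 0 of the 8 windows and in 13% of all promoters. A GC box (GGGCGG, either strand) occurred in the windows of L1cam, Nfasc, Nrcam, Ncam2 and Alcam and in 33% of all promoters. These matches describe letters only and identify no binding site. Ncam1 and Thy1 had no entry.

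Among the L1 family, L1cam (ENSMUSG00000031391.18; GRCm38 chromosome X, 73853778 to 73896105, minus strand) encodes the founding member, which promotes axon growth and fasciculation. It had 4155 reads in the control, 315 in clone 1 and 233 in clone 2, or 346, 28.1 and 20.9 CPM. Both clones lay far below the control and the counting intervals did not overlap. The log2 fold change was -3.82 ± 0.09 (SE; edgeR adjusted p = 1.48e-14). Falls of at least 8-fold with a call, the class to which L1cam, Cntn1 and Cntn2 belong, made up 2.26% of tested genes. Cntn1 was tested only because of its reads in the control.

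Nfasc (ENSMUSG00000026442.14; chromosome 1, 132564690 to 132741797, minus strand) encodes neurofascin, which assembles the axon initial segment and the node of Ranvier. It had 134 reads in the control against 28 and 47 in the clones, or 11.2 CPM against 2.49 and 4.22 CPM. Its log2 fold change was -1.73 ± 0.25 (SE; edgeR adjusted p = 3.13e-05). The initial segment and nodal forms come from alternative exons, which gene counts do not separate. The control was above both clones, and clone 2 kept more than clone 1.

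Nrcam encodes a further nodal L1 family protein. It had 21 reads in the control and 24 and 20 in the clones, or 1.75, 2.14 and 1.80 CPM. The control was below both clones in CPM, but the counting intervals of all 3 libraries overlapped. The log2 fold change was 0.17 ± 0.40 (SE; edgeR adjusted p = 0.747). Chl1, the close homologue of L1, had 3 reads in the control and 2 and 1 in the clones. Pooled over the clones, the counting interval of its log2 ratio to the control ran from -3.80 to 2.01, so no difference was detectable at this depth. Within the L1 family, L1cam and Nfasc thus fell, while Nrcam and Chl1 were scarce in all 3 libraries.

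Ncam1 (ENSMUSG00000039542.16; chromosome 9, 49502136 to 49798925, minus strand) encodes the main neural cell adhesion molecule, a homophilic receptor that also engages FGF receptors. It had 4394 reads in the control and 3222 and 3152 in the clones, or 366, 287 and 283 CPM. The clones differed by less than their counting error and both lay below the control. The log2 fold change was -0.36 ± 0.05 (SE; edgeR adjusted p = 2.39e-05). This was the smallest change among the called members. Ncam2, the olfactory paralogue of Ncam1, had 1 read in the control, 0 in clone 1 and 1 in clone 2. With the floor for a count of 0 set at 3 reads, clone 1 could hold up to 0.267 CPM, so Ncam2 was at or near the limit of detection in all 3 libraries.

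**Figure D2:**
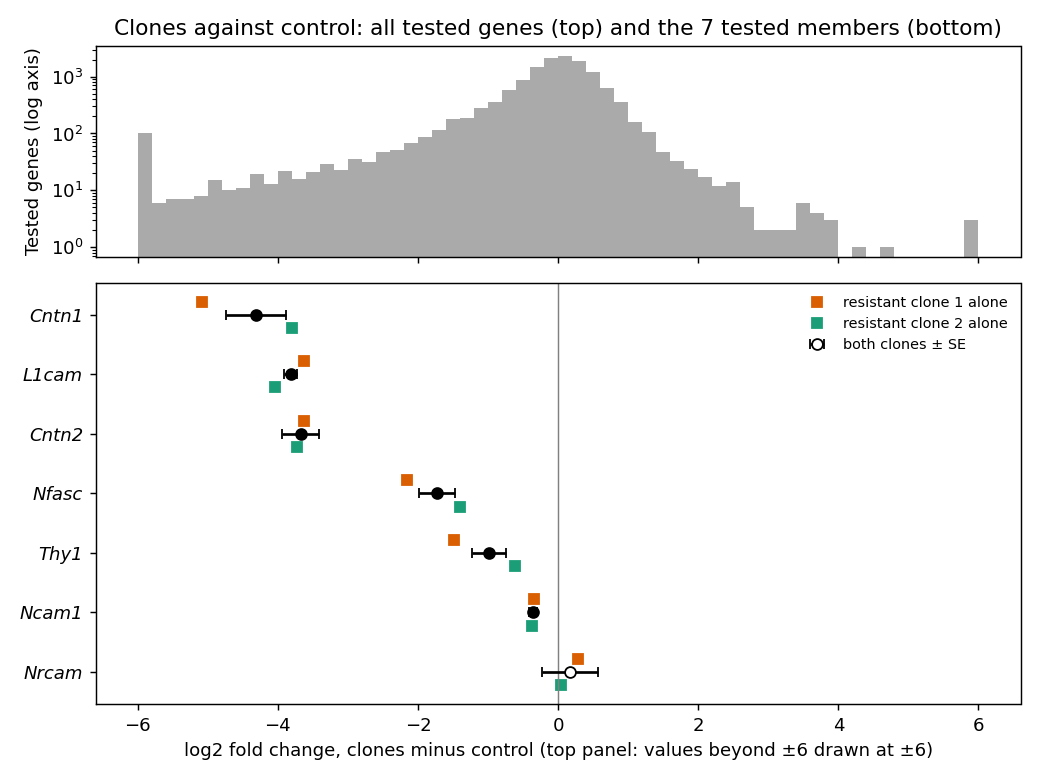
Log2 fold changes of the clones against the control: the histogram (log count axis) holds all 13705 tested genes, and the lower panel the 7 tested members, with circles for both clones ± SE (filled where called) and squares for each clone alone. Cntn1, L1cam and Cntn2 lie between -4.31 and -3.67, Ncam1 lies at -0.36, and the bar of Nrcam spans 0.

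The contactins are GPI-anchored partners of the L1 family and of contactin-associated proteins. Cntn2 (ENSMUSG00000053024.14; chromosome 1, 132509427 to 132543256, minus strand), also known as TAG-1, had 173 reads in the control and 13 and 12 in the clones. These are 14.4 CPM against 1.16 and 1.08 CPM, and the clones agree within counting error. Its log2 fold change was -3.67 ± 0.26 (SE; edgeR adjusted p = 1.24e-08). Cntn1 (ENSMUSG00000055022.14; chromosome 15, 92051165 to 92341967, plus strand) had 77 reads in the control and 2 and 5 in the clones, or 6.41 CPM against 0.178 and 0.449 CPM. Its log2 fold change was -4.31 ± 0.43 (SE, edgeR adjusted p = 5.76e-07). Because Cntn1 passed the low-count filter only through the control, this p-value follows in part from the filter. With so few reads the size is loose: it was -5.09 with clone 1 alone and -3.80 with clone 2 alone, and counting error pooled over the clones gave -5.72 to -3.24.

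Thy1 (ENSMUSG00000032011.5; chromosome 9, 44043384 to 44048579, plus strand) encodes a small GPI-anchored protein found on neurons, T cells and fibroblasts. It had 162 reads in the control, 54 in clone 1 and 98 in clone 2, or 13.5, 4.81 and 8.81 CPM. Both clones were below the control, and they differed from each other. The log2 fold change was -0.99 ± 0.24 (SE; edgeR adjusted p = 0.00274), but DESeq2 gave an adjusted p of 0.111 and the authors' deposited table one of 0.141. Alcam, which encodes an adhesion molecule of growing axons and of activated leukocytes, had 8, 6 and 9 reads. Its pooled log2 ratio had a counting interval from -1.32 to 1.46, and the groups overlapped.

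The authors' deposited table, made with DESeq2 from the same 3 libraries, gives log2 fold changes of -3.83 for L1cam, -4.36 for Cntn1, -3.70 for Cntn2, -1.74 for Nfasc and -0.37 for Ncam1. It lists these 5 with an adjusted p under 0.05. Among all genes with an adjusted p in the authors' deposited table, 9.77% were called lower. It gives 0.16 for Nrcam, which was not called there.

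Levels of different genes were compared per kb of exon sequence, using the union of annotated exons. On this scale the control had 47.1 CPM per kb of L1cam and 42.2 CPM per kb of Ncam1. The counting intervals, from 45.6 to 48.5 and from 41.0 to 43.5, did not overlap, but the order of this pair also rests on the exon models. Thy1 followed at 4.50, Cntn2 at 1.55, Nfasc at 0.788 and Cntn1 at 0.679 CPM per kb. The intervals of Nfasc and Cntn1 overlapped. Nrcam stood at 0.131, Alcam at 0.0935, Chl1 at 0.0203 and Ncam2 at 0.00734 CPM per kb. The intervals of neighbours among these last 4 overlapped.

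In the clones, the order per kb was different. Ncam1 led with 32.9 ± 0.298 CPM per kb (SD, n = 2), followed by L1cam at 3.33 ± 0.685 and Thy1 at 2.27 ± 0.944. L1cam and Thy1 were therefore within their spread. Clone 2 had slightly more Thy1 (2.94) than L1cam (2.85) per kb. Nfasc stood at 0.237 ± 0.0865, Nrcam at 0.147 ± 0.0180 and Cntn2 at 0.120 ± 0.00602 CPM per kb. Cntn1, at 0.0333 ± 0.0203, now lay below Alcam at 0.0943 ± 0.0273. The ratio of Ncam1 to L1cam per kb was 0.897 in the control, 8.67 in clone 1 and 11.5 in clone 2.

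Summed over the 10 members, the level was 760 CPM in the control, 327 CPM in clone 1 and 322 CPM in clone 2. Ncam1 made up 48.1% of the members' reads in the control (exact binomial interval 47.1 to 49.2%), 87.9% in clone 1 (86.8 to 88.9%) and 88.1% in clone 2 (87.0 to 89.1%). L1cam made up 45.5% (44.5 to 46.5%), 8.59% (7.70 to 9.55%) and 6.51% (5.73 to 7.37%). The other 8 members together went from 48.2 CPM to 11.5 and 17.3 CPM. In the clones the repertoire was thus mostly Ncam1 by reads.

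**Figure D3:**
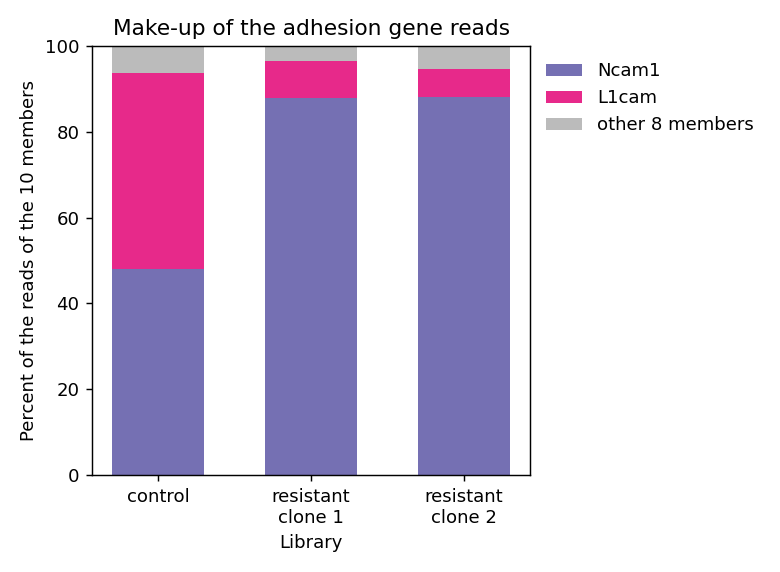
Percent of the reads of the 10 members that fell on Ncam1, on L1cam and on the other 8 genes, as stacked bars for each library. L1cam takes 45.5% in the control and 8.59% and 6.51% in the clones, and Ncam1 48.1% against 87.9% and 88.1%.

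The 2 clones were also set against each other, with 1 library each and therefore no test. Thy1 was higher in clone 2, at a log2 ratio of 0.87 (interval 0.38 to 1.38), and so was Nfasc at 0.76 (0.06 to 1.49). L1cam was lower in clone 2, at -0.42 (-0.67 to -0.17). These 3 of the 7 members had counting intervals that left out equal levels, as did 11.6% of tested genes. Ncam1 was alike in both clones, at -0.02 (-0.09 to 0.05). For Cntn2 (-0.10), Nrcam (-0.25) and Cntn1 (1.34) the intervals included 0, and that of Cntn1, with 2 and 5 reads, reached from -1.28 to 4.73. Thy1, Nfasc and Cntn1 passed a 1.5-fold difference between the clones, against 8.63% of tested genes.

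**Figure D4:**
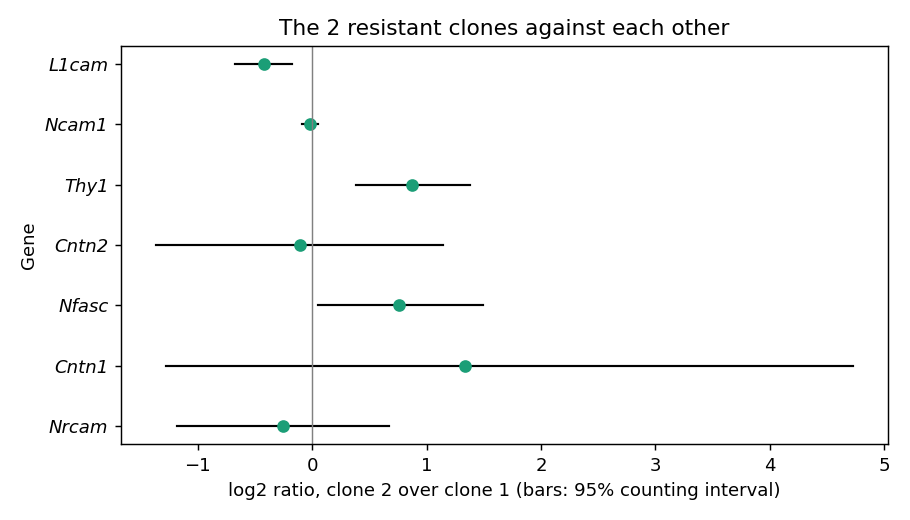
Log2 ratio of clone 2 over clone 1 for the 7 tested members, with 95% counting intervals as bars. Thy1 and Nfasc lie to the right of 0 and L1cam to the left, while Ncam1 lies at -0.02 and the interval of Cntn1 is wide.

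Nfasc and Cntn2 are neighbours on the same strand of chromosome 1, 21.4 kb apart with 0 annotated genes between them, and both fell. Of the other tested genes within 250 kb of Cntn2, Rbbp5 (log2 fold change 0.10) and Tmem81 (-0.08) were not called, Tmcc2 was lower (-0.16; edgeR adjusted p = 0.0338) and Dstyk higher (0.32; edgeR adjusted p = 0.0491). Within 250 kb of L1cam, 9 of 14 tested genes were called higher and 3 lower, with a median log2 fold change of 0.23. On all of chromosome X, 64 of 425 tested genes were called higher and 41.2% lower (median -0.22). Over all tested genes of the series, 24.3% were called higher and 25.8% lower. On chromosome 15, which carries Cntn1, 49.5% were called lower (median -0.28). Chromosomes 1 and 9, with Nfasc, Cntn2, Ncam1 and Thy1, had medians of -0.02 and -0.0044. The part of the chromosome in the falls of L1cam and Cntn1 was not tested. Next to Ncam1, the dopamine receptor gene Drd2 went from 5.49 CPM in the control to no read in either clone and Ttc12 from 16.5 to 8.91 and 7.55 CPM (edgeR adjusted p = 0.000145 for Ttc12). Drd2 passed the low-count filter only through the control, so no test is given for it.

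Overlapping transcripts may share reads, and whether reads were counted by strand is not stated in the sources used here. L1cam shares 100 bp of exon with Arhgap4 on the same strand. Arhgap4, a GTPase-activating protein gene, went the other way, from 11.2 to 17.2 and 19.1 CPM (log2 fold change 0.70; edgeR adjusted p = 0.00142). Ncam1 shares 417 bp of exon with the antisense gene Gm11149. By the measure of likeness used here, the distance between centred log2 CPM over the 3 libraries, the genes nearest to Ncam1 among 1296 of comparable level were Sdf4 (302, 237 and 234 CPM), Fam91a1 and Stx12. Over 3 libraries many genes share such a profile.

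Among other neural adhesion genes of the immunoglobulin superfamily, Mcam, Igsf9 and Sdk2 fell and Kirrel rose. Of 28 genes listed, 16 passed the low-count filter, 6 were called lower and 1 higher, with a median log2 fold change of -0.42. Over all tested genes, 25.8% were called lower and 24.3% higher. Mcam, an endothelial and melanoma adhesion gene, fell from 70.7 to 36.2 and 37.3 CPM (log2 fold change -0.95; edgeR adjusted p = 1.02e-07). Igsf9, a dendrite and synapse adhesion gene, fell from 9.65 to 1.34 and 2.79 CPM (-2.22; edgeR adjusted p = 1.24e-05). Sdk2, a sidekick gene of retinal synapses, fell from 7.49 to 3.30 and 3.60 CPM (-1.12; edgeR adjusted p = 0.00131; DESeq2 adjusted p = 0.149). Kirrel, which encodes a nephrin-like adhesion protein, rose from 42.9 to 57.2 and 60.9 CPM (0.46; edgeR adjusted p = 0.000283). Of the IgLON genes, Lsamp, Ntm, Opcml and Negr1 had at most 2 reads in any library, and Iglon5 had 14, 10 and 20 reads and was not called (log2 fold change 0.20; edgeR adjusted p = 0.768).

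Genes for membrane and cytoskeletal partners moved both ways. Of 25 tested among 27 listed, 9 were lower and 5 higher, with a median of -0.10. This was near the shares over all tested genes, 25.8% lower and 24.3% higher, for the genes called higher. Ank3 encodes ankyrin-G, the scaffold that holds L1 family proteins at the initial segment. It fell from 81.1 to 44.5 and 45.3 CPM (log2 fold change -0.85; edgeR adjusted p = 1.49e-07). Sdcbp, which encodes the PDZ protein syntenin, fell from 346 to 257 and 253 CPM (-0.44; edgeR adjusted p = 3.25e-06). Ap2a1, which encodes a subunit of the AP-2 adaptor of clathrin-coated pits, rose from 117 to 181 and 182 CPM (0.63; edgeR adjusted p = 2.95e-07).

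Among extracellular ligands, coreceptors and signalling partners, 27 of 30 listed genes were tested, of which 11 were lower and 7 higher (median -0.12). Of these 11, Tnr and Ptprz1 passed the low-count filter only through the control. The shares over all tested genes were 25.8% lower and 24.3% higher. Ncan encodes neurocan, a proteoglycan ligand of L1CAM and NCAM1. It fell from 30.8 to 4.01 and 3.33 CPM (log2 fold change -3.07; edgeR adjusted p = 5.16e-10). The integrin gene Itgb3 fell from 37.7 to 13.5 and 12.2 CPM (-1.55; edgeR adjusted p = 3.58e-08). Gfra1 encodes a GDNF coreceptor that also pairs with NCAM1, and it fell from 24.5 to 6.50 and 8.09 CPM (-1.74; edgeR adjusted p = 2.25e-07). Itga5, the fibronectin receptor alpha chain gene, rose from 130 to 201 and 198 CPM (0.61; edgeR adjusted p = 3.29e-07).

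**Figure D5:**
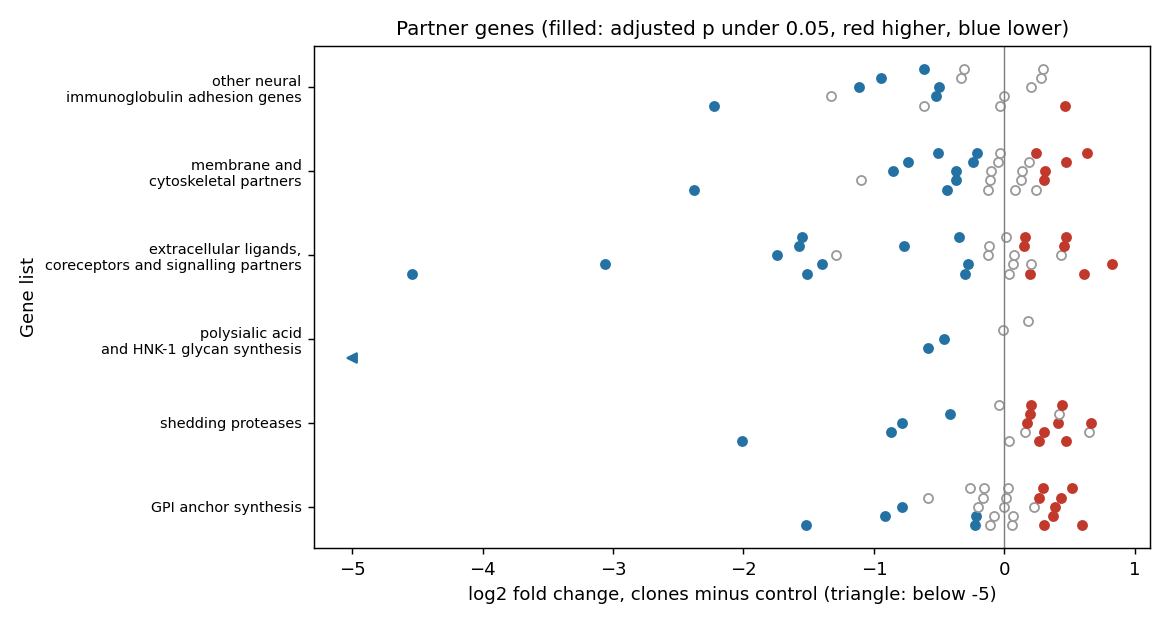
Log2 fold change of each tested gene in the 6 partner lists (clones minus control), filled where called (blue lower, red higher) and open where not; the triangle is a gene drawn at the edge because it lies below -5. Adhesion relatives and glycan genes lie mostly left of 0, while shedding proteases and GPI anchor genes lie on both sides.

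For polysialic acid and HNK-1 glycans, 5 of 11 listed genes were tested, 3 were lower and 0 higher (median -0.47). At an unadjusted p under 0.05, 0 were higher too. Among all tested genes, 25.8% were called lower and 24.3% higher. St8sia3, a sialyltransferase gene, went from 379 reads in the control to 0 in both clones, and its call follows in part from the filter, which it passed only through the control. St8sia2, which encodes an NCAM polysialyltransferase, had 0, 2 and 0 reads, which is under the limit of 3 reads in every library. Other NCAM polysialyltransferase genes were not analysed here. The HNK-1 synthesis genes B3gat1 (0, 0 and 1 reads) and B3gat2 (0, 1 and 1 reads) were too scarce to be tested. The calls in this list are thus of sialic acid genes, and none bears on HNK-1 synthesis. Cmas, which activates sialic acid, fell from 86.0 to 58.0 and 56.5 CPM (log2 fold change -0.59; edgeR adjusted p = 5.30e-06), and Gne, the entry enzyme of sialic acid synthesis, from 20.6 to 14.0 and 15.9 CPM (-0.47; edgeR adjusted p = 0.0114). DESeq2 did not call Gne (adjusted p = 0.317). Slc35a1, the CMP-sialic acid transporter gene, was at 39.2, 44.0 and 44.8 CPM and was not called (edgeR adjusted p = 0.108).

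Shedding proteases, which release the extracellular parts of L1CAM, NCAM1 and related proteins, had 9 genes higher and 4 lower of 18 tested (median 0.20). For all tested genes the shares were 24.3% higher and 25.8% lower. Adam12 rose from 98.0 to 153 and 157 CPM (log2 fold change 0.66; edgeR adjusted p = 3.15e-07) and Furin, which activates ADAM proteases, from 162 to 233 and 215 CPM (0.47; edgeR adjusted p = 1.07e-05). Bace2 fell from 182 to 46.9 and 43.8 CPM (-2.01; edgeR adjusted p = 9.17e-13). Psen2, a gamma-secretase subunit gene, fell from 39.9 to 23.7 and 22.7 CPM (-0.78; edgeR adjusted p = 1.11e-05).

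The GPI anchor that the contactins and Thy1 need is made by a pathway of which 26 of 27 listed genes were tested. Here 8 were higher and 5 lower, with a median of 0.0025, where 24.3% of all tested genes were higher and 25.8% lower. The 13 called in either direction were near the share of 50.1% over all tested genes. Piga, the catalytic subunit gene of the first step, fell from 65.1 to 20.9 and 24.5 CPM (log2 fold change -1.52; edgeR adjusted p = 4.02e-09). Pigp, of the same complex, fell from 42.9 to 21.2 and 24.2 CPM (-0.92; edgeR adjusted p = 3.16e-06). Pigq of that complex rose from 114 to 154 CPM in both clones (0.43; edgeR adjusted p = 2.01e-05), and Pign rose from 88.3 to 113 and 116 CPM (0.38; edgeR adjusted p = 0.000166).

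Neuronal markers fell together with the adhesion genes. Of 11 neuron markers listed, 9 were tested and all 9 were lower, where 25.8% of all tested genes were called lower. The markers summed to 2320 CPM in the control and 944 and 897 CPM in the clones. Nefl (1673, 5 and 1 reads) and Nefm (845, 5 and 5 reads), both neurofilament genes, passed the filter only through the control, as did Slc18a3 among the motor neuron markers, so these calls follow in part from the filter. Stmn2 had 2 reads in the control and 0 in the clones, and Rbfox3 was not analysed here. Of 6 motor neuron markers, 3 were tested and 3 were lower, with sums of 23.2, 5.79 and 4.85 CPM. Slc18a3, the vesicular acetylcholine transporter gene, had 113 reads in the control and 3 and 1 in the clones. Chat, the acetylcholine-synthesising enzyme gene, had 7 reads in the control and 0 in both clones. Mnx1 (1, 1 and 3 reads) and Lhx3 (1, 0 and 0 reads), transcription factor genes of motor neurons, stayed at or under the limit of 3 reads in all 3 libraries. The part of the shift in neuronal markers in the falls of the adhesion genes was not tested.

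Among markers of other cell types, glial and leukocyte genes were scarce, while some fibroblast and endothelial genes were well detected. The 7 glial markers measured summed to 7.74 CPM in the control and 6.59 and 6.56 CPM in the clones. By edgeR, 0 of the 3 tested were called (1 of 3 at an unadjusted p under 0.05), where 50.1% of all tested genes were called. Sox10 and S100b were at 0 in the control. The leukocyte markers summed to 0.999, 0.980 and 1.26 CPM. Of these, Ptprc had 1, 0 and 2 reads and Cd4 had 3, 1 and 0. The 5 fibroblast markers summed to 73.7, 67.2 and 84.2 CPM, with a median log2 fold change of 0.47 over the 4 tested. Pdgfra was lower, at 51.7 CPM in the control and 43.0 and 45.3 CPM in the clones (log2 fold change -0.23; edgeR adjusted p = 0.0363). Col1a2 (7.99, 9.35 and 14.4 CPM), Col1a1 (13.4, 14.0 and 23.3 CPM) and Dcn (0.583, 0.623 and 0.989 CPM) had higher values in the clones and were not called, although Col1a2 and Col1a1 had unadjusted p-values of 0.0275 and 0.0479 by edgeR. Col1a1 and Col1a2, like Thy1, were higher in clone 2 than in clone 1. Their log2 ratios were 0.74 (interval 0.44 to 1.03) and 0.62 (0.26 to 0.99). For Dcn (0.67, interval -0.83 to 2.27), Pdgfra (0.07, interval -0.11 to 0.26) and Lum (3 reads in each clone) the intervals included 0. The part of these genes in the difference of Thy1 between the clones was not tested. The 4 endothelial markers summed to 32.0, 15.7 and 17.6 CPM. Both tested genes, Kdr and Pecam1, were lower, where 25.8% of all tested genes were called lower. Cdh5 (10, 4 and 2 reads) and Tek (3, 3 and 6 reads) had too few reads to be tested. The part of the endothelial markers in the change of Mcam, which endothelial cells carry, was not tested.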

How the data were processed

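Libraries were made from polyadenylated RNA with a stranded kit, per the labels' protocols. The authors counted whole reads per gene with STAR on Gencode M16 (GRCm38/mm10) and deposited the raw counts, per the file headers. The RPM columns, which the authors scaled to mapped reads per the file headers, were not used. The authors' deposited table gives DESeq2 log2 fold changes with p-values. The submitters' processing notes name STAR 2.5.3. Groups came from the labels. Low counts were removed with filterByExpr, which left 13705 of 22976 genes. The test was edgeR's two-sided quasi-likelihood F test with TMM factors, the legacy option off and Benjamini-Hochberg adjustment over all tested genes (R 4.3.3, edgeR 4.0.16, limma 3.58.1, DESeq2 1.42.0). The standard error is the log2 fold change over the square root of F. With 1 residual degree of freedom, spread was moderated across genes. The scripts were tested on simulated data. Floors were 3 counts.

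Exon lengths, positions and overlaps came from Gencode M21 (GRCm38), and promoter bases from RefSeq, with entries for 8 of 10 members. The members and gene lists were chosen with earlier results of these data known. Genes named are all members, in each partner list the 4 with the lowest p, markers, and overlapping genes; some genes under this rule are not reported here. The IgLON genes, St8sia2, B3gat1, B3gat2 and the neighbours within 250 kb were picked with their values in view. As alternatives, the fits used DESeq2, RLE factors, no filter, a mean of at least 1 CPM, the legacy fit, limma-voom, leaving out each clone and other gene lengths. No filter with the legacy fit was added after seeing the data.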

Additional observations from a re-analysis of the deposited data

How the results depend on the processing

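No paired analysis was possible because there was 1 control library and the labels state no pairing. The control could not be left out, and leaving out a clone gives a fold change but no test. All 6 called members stayed lower with either clone alone. Both clones lay below the control in 44.5% of all 13705 tested genes. The members were called lower on these same clones, so this is no independent check. Their log2 fold changes ranged from -4.05 to -3.62 for L1cam, -5.09 to -3.80 for Cntn1, -3.73 to -3.62 for Cntn2, -2.16 to -1.40 for Nfasc, -1.48 to -0.62 for Thy1 and -0.37 to -0.35 for Ncam1. RLE factors, a mean of at least 1 CPM, the legacy fit and limma-voom each also called 6 members lower. Without the low-count filter the members called lower were 0, as were calls in both directions in all 6 partner lists. Over all 22976 genes, that setting gave 0 calls higher and 4 lower, with 3670 and 3417 at an unadjusted p under 0.05. No filter together with the legacy fit gave 0 and 0, and 0 members (adjusted p from 0.0589 to 0.297). The cause was not tested. Limma-voom and DESeq2 were run only on filtered genes. DESeq2 called 1578 genes higher and 1459 lower. It called 2 other adhesion genes lower, 3 membrane and cytoskeletal partners lower, 3 ligands and signalling partners higher and 6 lower, 4 proteases higher, and 3 GPI genes higher and 3 lower. With the longest transcript as length, the control levels were 67.5 CPM per kb for L1cam, 55.7 for Ncam1, 7.77 for Thy1, 1.96 for Cntn2, 1.14 for Nfasc, 1.13 for Cntn1 and 0.278 for Nrcam, in the same order. Other scalings left every clone ratio within its counting interval. Depth limits Chl1, Ncam2, Alcam and Nrcam, each with at most 24 reads in a library.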
